A study of Mus musculus with 2 samples.

Results

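Periportal hepatocyte nuclei are nuclei of the liver cells that lie where portal blood enters the lobule. They were chosen here by a gate on their own counts. A barcode was taken as a member when it held at least 5000 unique molecular identifiers (UMIs, the counted RNA molecules) and at most 5% mitochondrial UMIs. Its summed UMIs of Cyp7b1, Abcb11 and Arg1 (called the hepatocyte gate) had to reach 15 per 10000, with at least 3 UMIs of Sds and at most 1 of Slc1a2. The UMIs of Ptprc, Stab2, Flt1 and Reln, genes of blood and vessel cells, could sum to 2 at most. The gate took 711 of 17169 barcodes. These were 13.1% of the 5428 nuclei that met the depth and mitochondrial limits (exact 95% interval 12.2 to 14.0%), and 54.8% of the 1297 in the hepatocyte gate that also met the limit on blood and vessel genes (52.1 to 57.6%).

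The nuclei came from frozen mouse liver with hepatocellular carcinoma, and the study's text names a region of residual tumour cut out under the microscope. RNA was counted from the 3′ end on a droplet platform. The labels list 2 samples of 1 group, with no strain, genotype, treatment or age. Their single count matrix carries no sample name on its barcodes, so it was treated as 1 pooled sample. There are therefore no replicates, and no p-value was computed. Intervals are exact 95% Poisson or binomial ones that cover counting error only, not the spread between animals. Every comparison below is a description of classes that were cut from these same counts.

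The liver lobule is divided along the path of blood from the portal vein to the central vein. Hepatocytes near the portal vein are known for urea synthesis, amino acid breakdown and glucose output. Those around the central vein, under Wnt signalling from the vein's endothelium, make glutamine and hold most of the cytochrome P450 enzymes for drugs. Sds, serine dehydratase, is a portal enzyme that turns serine into pyruvate and is induced by glucagon in fasting. Slc1a2 is a glutamate transporter of the hepatocytes next to the central vein.

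Members held 5132 to 53907 UMIs each, with a median of 14706, and 11825019 UMIs in all. They were compared with 130 pericentral nuclei, which passed the same limits but had at least 3 Slc1a2 and at most 1 Sds UMI (median depth 14435.5). A further 436 nuclei of the hepatocyte gate had at most 2 Sds and at most 1 Slc1a2 UMI (median 14884.5) and are called low in both zone genes. All other nuclei numbered 4717 (median 9149), and among them 1878 were Ccnd3-high, with at least 20 Ccnd3 UMIs per 10000 (median 7651). Ccnd3 encodes cyclin D3, and 28 of the Ccnd3-high nuclei also lay in the hepatocyte gate. A doublet caller marked 22 members, or 3.09%, and 3.38% of the 9632 barcodes it was given.

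The edges of the gate were well filled. Exactly 3 Sds UMIs were found in 54 members, and 58 nuclei with 2 Sds UMIs lay just outside. Slc1a2 was at 0 in 652 members and at 1 in 59, and 11 nuclei with enough Sds were kept out for Slc1a2. The hepatocyte genes stood between 15 and 18 per 10000 in 155 members, and between 12 and 15 in 159 nuclei that met all other limits. Their median was 22.1 per 10000 in members, 28.8 in nuclei low in both zone genes and 44.5 in pericentral nuclei. The limit of 15 thus lay closest to the median of members, and its part in their share of the hepatocyte gate was not tested. The limit on blood and vessel genes alone removed 122 nuclei.

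These promoters are printed because the genes behind them mark both ends of the portal to central axis outside the gate. Each holds the 250 bases before a RefSeq start site on the gene's own strand (table build GRCm38.p6). Hsd17b13 encodes an enzyme of the lipid droplet surface and is one of the markers given for these nuclei. Cyp2f2 is a portal cytochrome P450, Hal is histidine ammonia lyase, and Glul is the glutamine synthetase of the innermost central hepatocytes. Capitals mark motif matches found by search. In Hsd17b13 (chr5:103977389-103977638, minus strand) they mark the core of the cAMP response element, TGACG, on the opposite strand. In Hal (chr10:93488518-93488767, plus strand) they mark first a TCF/LEF match, CTTTGAT, and then a C/EBP match, TTGCNNAA. Cyp2f2 (chr7:27119705-27119954, plus strand) and Glul (chr1:153899679-153899928, plus strand) held none of the 6 motifs searched.
Hsd17b13: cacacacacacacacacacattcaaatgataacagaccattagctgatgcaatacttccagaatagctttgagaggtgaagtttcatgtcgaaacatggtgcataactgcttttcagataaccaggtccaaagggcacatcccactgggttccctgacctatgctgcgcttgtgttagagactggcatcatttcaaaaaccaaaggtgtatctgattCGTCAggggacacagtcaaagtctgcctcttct
Hal: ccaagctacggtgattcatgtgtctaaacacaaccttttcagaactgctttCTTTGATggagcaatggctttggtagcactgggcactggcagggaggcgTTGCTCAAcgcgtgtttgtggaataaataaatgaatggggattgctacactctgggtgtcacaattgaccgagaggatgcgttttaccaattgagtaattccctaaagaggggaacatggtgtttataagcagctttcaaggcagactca
Cyp2f2: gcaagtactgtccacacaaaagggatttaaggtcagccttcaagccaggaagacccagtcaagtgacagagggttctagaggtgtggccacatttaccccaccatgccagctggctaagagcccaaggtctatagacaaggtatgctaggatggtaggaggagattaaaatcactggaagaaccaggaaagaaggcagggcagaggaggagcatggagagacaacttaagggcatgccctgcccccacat
Glul: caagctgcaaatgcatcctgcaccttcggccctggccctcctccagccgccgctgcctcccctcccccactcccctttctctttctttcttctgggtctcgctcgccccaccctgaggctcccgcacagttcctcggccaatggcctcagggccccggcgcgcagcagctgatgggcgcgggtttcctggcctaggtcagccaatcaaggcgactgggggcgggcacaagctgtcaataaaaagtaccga

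Levels are given as CPM, the summed UMIs of a gene scaled to a common total of UMIs per class. They compare a gene between classes and not genes with each other. Sds itself, which set the gate, stood at 634 CPM in members, 8.65 in pericentral nuclei and 138 in all other nuclei. Hsd17b13 (chr5:103955440-103977410, minus strand) stood at 589 CPM (575 to 603) in members and 23.1 in pericentral nuclei, a 25.5-fold difference (19.2 to 34.7). Sult5a1 (chr8:123140192-123158315, minus strand), a sulfotransferase, stood at 154 CPM in members and 2.40 in pericentral nuclei, or 64.2-fold higher (27.5 to 198). Hsd17b13 and Sult5a1 are among the markers given for these nuclei. The gate did not use their counts, but their direction is not independent evidence. Keg1 (chr19:12695786-12719902, plus strand), named for its expression in kidney and a member of an acyltransferase family, stood at 606 CPM in members and 516 in pericentral nuclei. Its ratio was 1.17 (1.10 to 1.25), so Keg1 marked hepatocyte nuclei of both zones here and did not separate them. Keg1 was 38.0 CPM in Ccnd3-high nuclei and 150 in free RNA, the RNA of barcodes too shallow to be called cells.

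**Figure D1:**
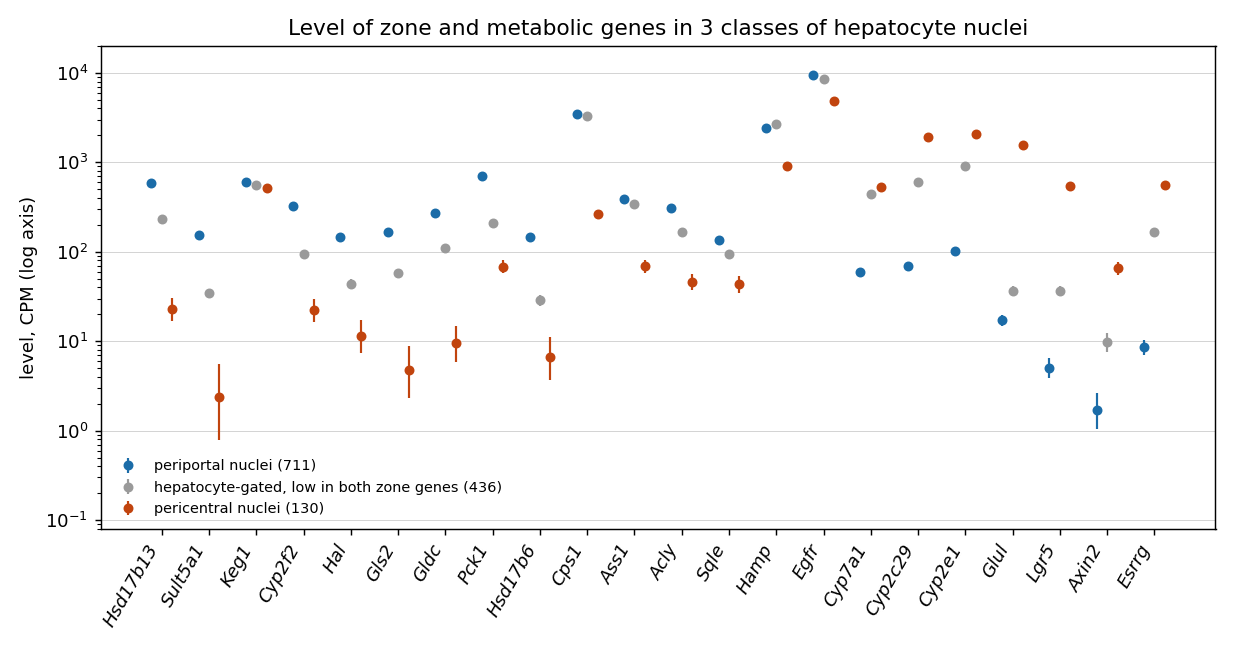
Level in CPM (log axis) of 22 genes in periportal nuclei (blue), hepatocyte-gated nuclei low in both zone genes (grey) and pericentral nuclei (red); points are summed counts and bars exact 95% Poisson intervals. Portal genes at the left are highest in periportal nuclei, central genes at the right are highest in pericentral nuclei, and Keg1 is nearly level at 606, 563 and 516 CPM.

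Against pericentral nuclei, members were high in portal metabolic genes and low in central ones. A gene was counted as different at 2-fold or more on the scale log2(CPM + 1), among 8933 genes outside the gate whose mean CPM over both classes was at least 10. Of these, 353 (3.95%) were higher in members and 427 (4.78%) were lower, and the median log2 ratio over all 8933 was -0.00. Of 20 genes listed as portal, 17 passed the level filter, and 11 were higher and 0 lower, with a median log2 ratio of 1.54. Of 25 genes listed as central, 24 passed, and all 24 were lower, with a median of -4.11. These lists were written with earlier results of these data known, so their direction is not independent evidence.

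The 4 portal genes with the largest ratios were Gls2, Hsd17b6, Ctsc and Cyp2f2. Gls2, the liver glutaminase that frees ammonia from glutamine, stood at 165 CPM in members and 4.80 in pericentral nuclei (34.3-fold, 18.6 to 71.7). Hsd17b6, a hydroxysteroid dehydrogenase, stood at 145 against 6.73 CPM, a 21.5-fold difference (12.8 to 39.5). Ctsc, a lysosomal protease, stood at 54.7 against 2.88 CPM. Cyp2f2 and Hal, whose promoters are printed above, were 14.3-fold (10.7 to 19.5) and 12.6-fold (8.42 to 19.7) higher. The 6 members of this list that stayed within 2-fold were Apoa4, Tat, Mfsd2a, G6pc, Pigr and Igfals, at log2 ratios of 0.82, 0.72, 0.66, 0.56, 0.36 and -0.12. Igfals, part of the complex that carries insulin-like growth factors in blood, was the 1 member of the opposite sign.

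Some genes of urea synthesis were higher in members. Of 11 listed genes of the urea cycle and ammonia handling, 5 were higher and 0 lower, with a median log2 ratio of 0.82. Cps1, which commits ammonia to the cycle, stood at 3508 CPM in members and 267 in pericentral nuclei (13.1-fold, 12.1 to 14.3). Ass1 and Asl, the next cytosolic steps, were 5.64-fold (4.78 to 6.71) and 3.13-fold (2.56 to 3.87) higher. Slc7a2, a transporter of arginine, was 3.71-fold higher (3.39 to 4.07). Slc25a15, which carries ornithine into mitochondria, stood at 73.2 against 75.9 CPM, and Glud1, glutamate dehydrogenase, at 761 against 1078 CPM. Otc, the mitochondrial step after Cps1, stood at 212 against 120 CPM.

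Genes of amino acid catabolism were found on both sides. Of 41 listed genes, 40 passed the filter, 7 were higher and 5 lower, 28 stayed within 2-fold, and the median was 0.00. The histidine pathway was higher at all 4 listed enzymes: Hal as above, Uroc1 at 284 against 32.2 CPM, Amdhd1 at 188 against 19.2, and Ftcd at 454 against 67.7. Gldc, the glycine decarboxylase, stood at 270 against 9.61 CPM (28.1-fold, 18.2 to 46.1). Sdsl, a relative of Sds, stood at 30.1 CPM in members against 0.961, which rests on few pericentral counts (31.3-fold, 8.61 to 260). Among the 5 lower genes were Hpd of tyrosine breakdown, Prodh and Aldh4a1 of proline breakdown, and Bckdhb of branched-chain amino acids. Hpd, for example, stood at 266 against 746 CPM, and Prodh at 32.9 against 172 CPM.

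Genes of glucose output and lipid synthesis were partly higher in members. Pck1, which makes phosphoenolpyruvate for gluconeogenesis, stood at 695 against 68.2 CPM (10.2-fold, 8.63 to 12.1). Of 12 gluconeogenesis genes 3 were higher and 0 lower (median 0.39), the other two being Fbp1 and Got1. One member nucleus held 465 of the 8221 Pck1 UMIs, and without it the level in members was 656 CPM. Of 18 genes of glucose uptake and lipogenesis, 16 passed, 3 were higher and 0 lower (median 0.39). Acly, which makes cytosolic acetyl-CoA, stood at 307 against 46.1 CPM, and Acaca, the first enzyme of fatty acid synthesis, at 1685 against 606 CPM.

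Cholesterol synthesis genes leaned the same way. Of 21 listed genes all passed, 8 were higher and 0 lower, with a median of 0.85. The 8 were Sqle, Lss, Idi1, Mvd, Pmvk, Cyp51, Dhcr7 and Sc5d, all enzymes of the pathway. Lss, lanosterol synthase, stood at 61.1 against 16.3 CPM (3.74-fold, 2.65 to 5.45). Hsd17b7 had the opposite sign at 57.3 against 113 CPM. Fatty acid oxidation and ketogenesis held 17 genes past the filter of 22, with 0 higher, 0 lower and a median of -0.07. Lipoproteins (21 of 23 past the filter, median -0.06) and lipid droplet genes (15 of 22, median 0.00) also had 0 genes past 2-fold.

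Acute phase genes were higher in members more often than lower. Of 25 acute phase genes 24 passed, with 7 higher and 1 lower, and a median of 0.76. The chemokine Cxcl1 stood at 551 against 127 CPM (4.35-fold, 3.84 to 4.93), and serum amyloid Saa2 at 752 against 207 CPM (3.64-fold, 3.30 to 4.02). The 1 lower gene was Lifr, a cytokine receptor, at 165 against 606 CPM. Of 38 complement and coagulation genes 3 were higher, C8a and C9 among them, and 2 lower (C6, Pros1), with a median of 0.35, beside 3.95% and 4.78% of all genes. Among 5 genes listed for the middle of the lobule, 4 passed and 2 were higher. One of these was Hamp, the iron hormone hepcidin, at 2447 against 912 CPM. The other was Igfbp2, at 24.8 against 6.25 CPM.

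Central genes were low in members. Glul stood at 17.1 CPM in members and 1548 in pericentral nuclei, a log2 ratio of -6.42. Lgr5, a receptor that amplifies Wnt signals, stood at 5.07 against 539 CPM, and Lhpp, a phosphatase, at 5.84 against 544 CPM. Cyp2e1, which oxidises ethanol, stood at 102 against 2075 CPM. In free RNA Glul stood at 146 CPM and Cyp2e1 at 911 CPM, above their levels in members. The part of free RNA in what remained in members was not tested.

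Most listed Wnt targets and regulators were lower in members. Of 15 listed genes 11 passed, and 7 were lower and 0 higher, with a median of -3.28. The lower ones included Axin2, at 1.69 against 65.8 CPM, and Rnf43, a negative regulator of the Wnt receptor, at 57.8 against 571 CPM. Ctnnb1, which encodes beta-catenin itself, stood at 73.9 against 63.4 CPM, and Tcf7l2, a partner of it on DNA, at 497 against 438 CPM. Apc and Lgr4 were also within 2-fold, at log2 ratios of -0.21 and 0.27. Tcf7l1, a relative of Tcf7l2 known mainly as a repressor, was in no list and had one of the largest ratios in the other direction, at 179 against 8.65 CPM (20.7-fold, 13 to 35).

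Drug and bile acid metabolism were lower in members. Of 39 xenobiotic genes 36 passed, with 0 higher and 23 lower, and a median of -1.64. Cyp2c38 stood at 6.43 against 319 CPM, and Cyp2c29 at 70.2 against 1918 CPM. The Cyp2c and Cyp2a families hold genes of related sequence, and the effect of reads shared among them on these counts was not tested. The xenobiotic receptors Nr1i3 and Ahr stood at 85.9 against 510 CPM and 46.1 against 238 CPM. Of 19 bile acid genes 0 were higher and 8 lower (median -0.86). Cyp7a1, which sets the pace of bile acid synthesis, stood at 58.7 against 537 CPM.

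Most regulators of hepatocyte identity were level between the zones. Over all genes past the filter 3.95% were higher and 4.78% lower. Of 27 liver transcription factors 26 passed, with 1 higher and 2 lower, and a median of -0.06. Hnf4a, a master regulator of hepatocytes, stood at 355 against 295 CPM. The higher one was Onecut1, at 837 against 368 CPM. The lower ones were the retinoid receptor partner Rxra, at 151 against 346 CPM, and Esrrg, an orphan nuclear receptor, at 8.54 against 563 CPM. Among 28 hormone receptors and targets, 24 passed, and the 1 higher gene was Esr1, the oestrogen receptor, at 603 against 97.0 CPM (6.21-fold, 5.40 to 7.18). The 4 lower included Irs1, Avpr1a and Socs2. Socs2, a growth hormone target that dampens its signal, stood at 22 against 61.5 CPM. Gcgr, the glucagon receptor, stood at 298 against 260 CPM.

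Smaller lists added single genes, to be read beside 3.95% of all genes higher and 4.78% lower. A single gene past 2-fold, as in the clock list, is near that share and is no result about the list. The 2 metallothioneins Mt1 and Mt2, which bind metal ions, were 4.90-fold (4.45 to 5.41) and 4.60-fold (3.93 to 5.42) higher among 7 stress genes past the filter. Of 6 genes of male liver past the filter, 5 were lower (median -1.54), among them Hsd3b5 at 3.04 against 45.6 CPM. Of 2 genes of female liver past it, 1 was higher. The clock list had 1 higher gene of 16, Npas2, and iron handling had Hamp higher and Smad6 and Smad7 lower among 13. The hypoxia list had 1 lower gene of 9, Pfkfb3, and the cell cycle list 0 of 3. The 10 general hepatocyte genes had 2 higher (Cps1, Serpina1a) and 1 lower (Cyp3a11).

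**Figure D2:**
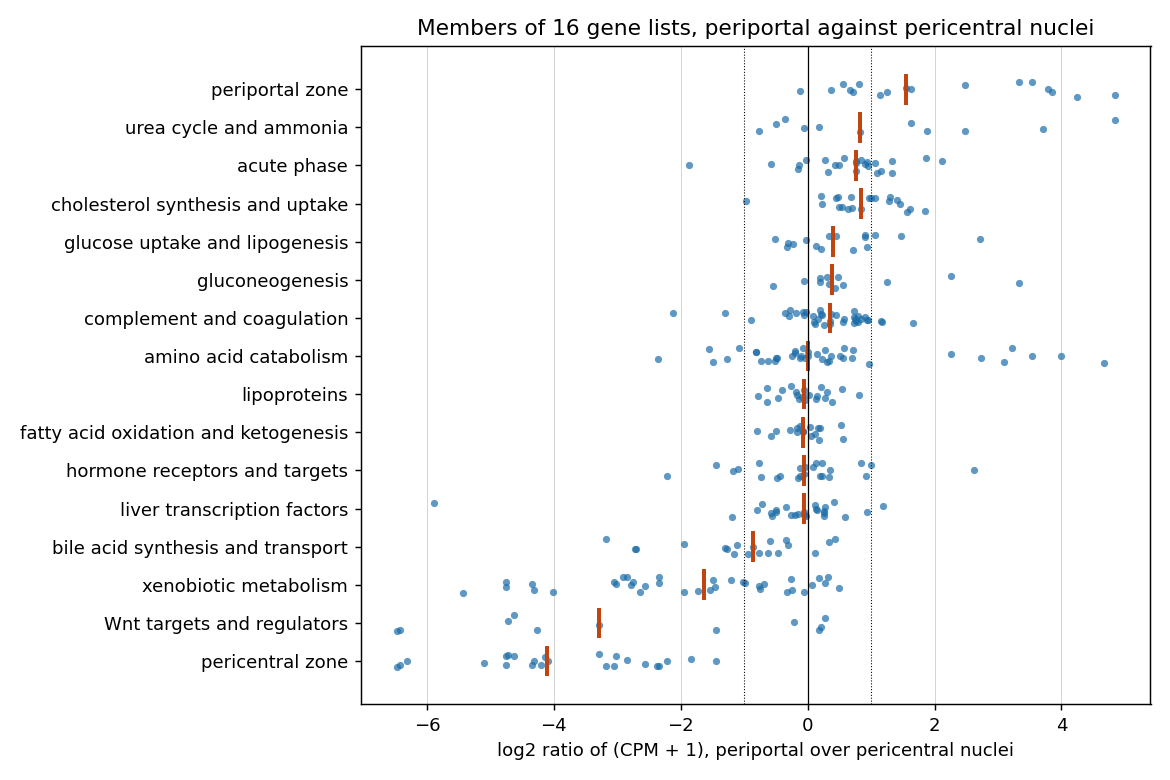
Each point is 1 gene past the level filter, placed by its log2 ratio of (CPM + 1) in periportal over pericentral nuclei; red bars are list medians, dotted lines mark 2-fold, and the vertical spread within a row has no meaning. The pericentral zone list lies wholly below -1 with a median of -4.11, the periportal zone list has a median of 1.54, and amino acid catabolism spreads to both sides around 0.00.

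Genes in no list showed differences as large as the known zone markers. The 12 highest were Cryl1, Trpm3, Bmper, Chrm3, Reck, Aspg, Rbfox1, Ncam2, Atp2b2, Tcf7l1, Plxna2 and Gask1a. Chrm3 (chr13:9875486-10360847, minus strand), a muscarinic acetylcholine receptor, stood at 1132 CPM in members and 26.9 in pericentral nuclei (42.1-fold, 32.4 to 55.7). Trpm3, a cation channel, was 51.7-fold higher (27.2 to 113). Ncam2, a cell adhesion molecule, was 22.2-fold higher (16.4 to 31.0). Plxna2, a semaphorin receptor, was 19-fold higher (13.8 to 26.9). Bmper, a secreted modulator of BMP signals, stood at 98.4 CPM against 3 pericentral UMIs (68.2-fold, 23.3 to 331), and Cryl1, Reck, Atp2b2 and Gask1a also rested on 3 pericentral UMIs or fewer.

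The 12 lowest were Tbx3os1, Tox, Meg3, Rcan2, Rian, Veph1, Bmpr1b, Snhg11, Kif26b, Adgrg2, Adgrb3 and Nxpe2. Tox, a nuclear factor best known from T cells, stood at 10.9 CPM in members and 1199 in pericentral nuclei (110-fold lower, 92.1 to 132). The noncoding RNAs Meg3 and Rian, neighbours on chromosome 12, were 121-fold (87.7 to 173) and 92.3-fold (51.7 to 182) lower. Tbx3os1 is annotated antisense to the region of Tbx3, a central transcription factor. It was 241-fold lower (165 to 367). Strand handling was not given in the sources used here, so overlapping genes cannot be told apart.

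Motif matches in the 250 bases before the start sites were few. Matches were sought on both strands for the cAMP response element TGACGTCA, its core TGACG (which lies within it), an HNF4A motif CAAAGTCCA, the HNF1 motif, C/EBP and TCF/LEF. All 12 highest genes had a promoter in the table. The core was in 0 of them, against 19.8% of all 27025 genes of the table, and the C/EBP motif was in 2, against 10.8%. Of the 12 lowest, 11 matched, with the core in 1 and the C/EBP motif in 2. Of the 353 genes higher in members, 254 matched the table, and 23.2% held the core, against 32.0% of all genes past the level filter and 18.5% of the 314 matched lower genes. TCF/LEF was in 4 of these 254 genes (1.57%) and in 16 of 314 matched lower genes (5.10%), against 2.83% of genes past the filter and 3.72% of all genes. The match at Hal stands in a gene that was higher in members.

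Shares of nuclei with a UMI were read after each nucleus was thinned to 5000 UMIs. Endothelial nuclei, which should lack hepatocyte genes, served as the background. They numbered 256 (median depth 7008, against 14706 in members) and had at least 10 UMIs of Stab2 and Flt1 per 10000 and fewer than 15 of the hepatocyte gate genes. Hsd17b13 was found in 90.9% of members (88.5 to 92.9%), 10.0% of pericentral and 19.5% of endothelial nuclei. Cyp2f2 was found in 73.6% of members, 16.9% of pericentral and 20.7% of endothelial nuclei. Sult5a1 was found in 44.2% of members, 0.769% of pericentral and 7.03% of endothelial nuclei. Chrm3 was found in 95.6% of members, 10.0% of pericentral and 35.5% of endothelial nuclei. For these portal genes pericentral nuclei had no higher share than endothelial nuclei. The part of free RNA in the UMIs of either class was not tested. Without thinning, the shares in members were 99.4% for Hsd17b13, 93.4% for Cyp2f2, 66.5% for Sult5a1 and 98.7% for Chrm3.

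Several central genes in members stood below the endothelial background, and Rnf43 stood above it. Glul was found in 9.0% of members (7.0 to 11.3%), 83.1% of pericentral and 16.8% of endothelial nuclei. Cyp2e1 was found in 31.1% of members, 100% of pericentral and 49.6% of endothelial nuclei. Lgr5 was found in 1.69% of members and 82.3% of pericentral nuclei, and Tox in 3.66% and 93.8%, against 7.42% and 15.6% of endothelial nuclei. Rnf43 was found in 19.5% of members (16.7 to 22.7%), 90.8% of pericentral and 6.25% of endothelial nuclei. Keg1 was found in 83.0% of members and 79.2% of pericentral nuclei, against 16.4% of endothelial nuclei. Unthinned shares in members were 21.1% for Glul, 62.3% for Cyp2e1, 3.09% for Lgr5, 7.17% for Tox, 43.5% for Rnf43 and 94.4% for Keg1.

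**Figure D3:**
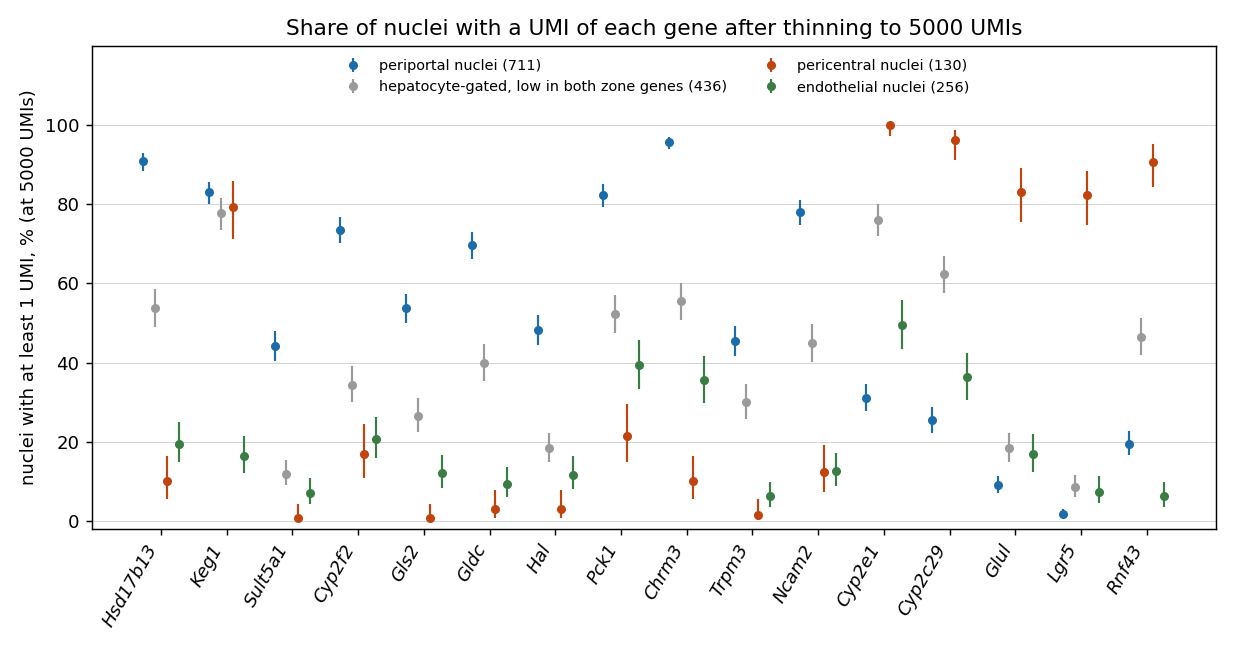
Share of nuclei, in percent, with at least 1 UMI of each of 16 genes after thinning to 5000 UMIs, in periportal (blue), low in both zone genes (grey), pericentral (red) and endothelial (green) nuclei; bars are exact 95% binomial intervals. Chrm3 reaches 95.6% of periportal nuclei and Hsd17b13 90.9%, while Glul and Lgr5 lie at 9.0% and 1.69% there, below the endothelial nuclei.

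Portal and central UMIs often met in one member at this depth. Of 5 portal genes (Cyp2f2, Hal, Gls2, Gldc, Hsd17b6) and 5 central genes (Glul, Cyp2e1, Lgr5, Cyp2c29, Lhpp), 325 members had UMIs of the portal set alone and 374 of both. UMIs of the central set alone were found in 7 members, and of neither in 5. Of the 130 pericentral nuclei, 0 had the portal set alone, which allows a share of up to 2.80% by the exact interval, and 97 the central set alone. Endothelial nuclei held Cyp2e1 in 49.6%, Cyp2c29 in 36.3%, Glul in 16.8%, Lgr5 in 7.42% and Lhpp in 6.64% at this depth. The part of free RNA in the central UMIs of members was not tested.

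Members lay together in genes the gate did not use. With the gate genes left out, 53.9% of a member's 15 nearest nuclei over 30 principal components were members, on average, while members made up 13.1% of all nuclei. Pericentral nuclei gave 0.0469% of these neighbours, and 708 of the 711 members had none. Nuclei low in both zone genes gave 8.65%, Ccnd3-high nuclei 1.68% and endothelial nuclei 0%. The remaining 35.7% were nuclei of no named class. Among the nuclei outside the gate, 420 failed only its limit on hepatocyte genes. Lying together was not particular to members. The mean share of neighbours from a nucleus's own class was 67.7% for pericentral nuclei (2.39% of all nuclei) and 52.9% for nuclei low in both zone genes (8.03%). It was 54.5% for endothelial nuclei (4.72%) and 81.9% for Ccnd3-high nuclei (34.1%).

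The nuclei low in both zone genes stood between the zones at many genes. Of 8923 genes, 75 (0.841%) were 2-fold or more higher in members and 140 (1.57%) lower, with a median log2 ratio of -0.02. Cps1, at 3508 CPM in members, 3308 in these nuclei and 267 in pericentral nuclei, kept the portal level. Hamp stood at 2447, 2706 and 912 CPM. Hsd17b13 was intermediate at 589, 234 and 23.1 CPM, and so was Cyp2e1 from the other side at 102, 898 and 2075 CPM. Cyp7a1 was near the pericentral level, at 58.7, 440 and 537 CPM. Of 20 central genes past the filter 17 were lower in members than in this class, and of 17 portal genes 7 were higher.

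Members varied among themselves, as counts per nucleus of 5000 UMIs show. Abundant hepatocyte genes were found in nearly every member, but not in members alone. At the same depth Alb, albumin, was found in 100% of endothelial nuclei and Cps1 in 71.5%. In members Cps1 ran from 0 to 92 UMIs with a median of 15 and was at 0 in 3 nuclei. Alb ran from 1 to 85 in members with a median of 24. Chrm3 ran from 0 to 20 UMIs with a median of 5 and was at 0 in 31 members. B3galt1 ran from 0 to 120 with a median of 20. Weaker portal genes were missed in many members at this depth. Hsd17b13 had a median of 3 UMIs and was at 0 in 65 members, Cyp2f2 a median of 1 and 188 members at 0, and Sult5a1 a median of 0 and 397 members at 0. Ccnd3 had a median of 1 UMI and reached 37.

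Members also varied in Sds. At 5000 UMIs their Sds count ran from 0 to 15 with a median of 3, and 50 members had 0. Nuclei of the hepatocyte gate with at most 1 Slc1a2 UMI were set in bins of this count, and the bins above 2 UMIs held members alone. Members were 50 of the 416 nuclei at 0 Sds UMIs and 231 of the 301 at 1 to 2. Steps between the lowest bins therefore also set other hepatocyte-gated nuclei against members, and are not variation among members alone. Pck1, a target of glucagon like Sds, stood at 249 CPM at 0 Sds UMIs, 470 at 1 to 2, 714 at 3 to 5 and 1888 at 6 to 10. One nucleus with 327 Pck1 UMIs of 5000 lay in the last of these, and without it the level was 1336 CPM. The median Pck1 count per nucleus in these bins was 1, 2, 3 and 4. The bin over 10 held 17 nuclei, at 1765 CPM, or 1200 CPM without its highest nucleus.

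Portal genes outside the gate differed in how their levels ran along these bins. Hsd17b13 stood at 272 CPM at 0 Sds UMIs and then at 576, 578 and 578 CPM in the next bins. Cyp2f2 stood at 132, 284, 331 and 319 CPM, and Chrm3 at 448, 1054, 1017 and 1141 CPM. In the bin over 10 these 3 genes stood at 624, 282 and 1153 CPM. Their levels from 1 to 2 Sds UMIs upward lay close together. Gls2 stood at 67.3, 140, 164 and 209 CPM, and Hsd17b6 at 41.8, 120, 141 and 179 CPM. In the 17 nuclei over 10 they stood at 353 (238 to 504) and 341 CPM (228 to 490), higher again than in the bins before. These levels rested on 30 and 29 UMIs. Without the highest nucleus for each gene they were 325 and 287.5 CPM. Of the central genes, Cyp7a1 stood at 353, 78.4, 47.1 and 19 CPM and Cyp2e1 at 780, 138, 104 and 94.8 CPM. Over 10, Cyp7a1 rested on 1 UMI and Cyp2e1 on 17 UMIs, with a level between 117 and 320 CPM that was not lower than in the bin before. Cps1 and Hamp were nearly flat, at 3101 to 3356 CPM and 2373 to 2695 CPM over these 4 bins. Median depth before thinning was lower at higher Sds, from 16742.5 UMIs at 0 to 11860.5 at 6 to 10 and 7645 over 10. The part of depth in these levels was not tested.

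**Figure D4:**
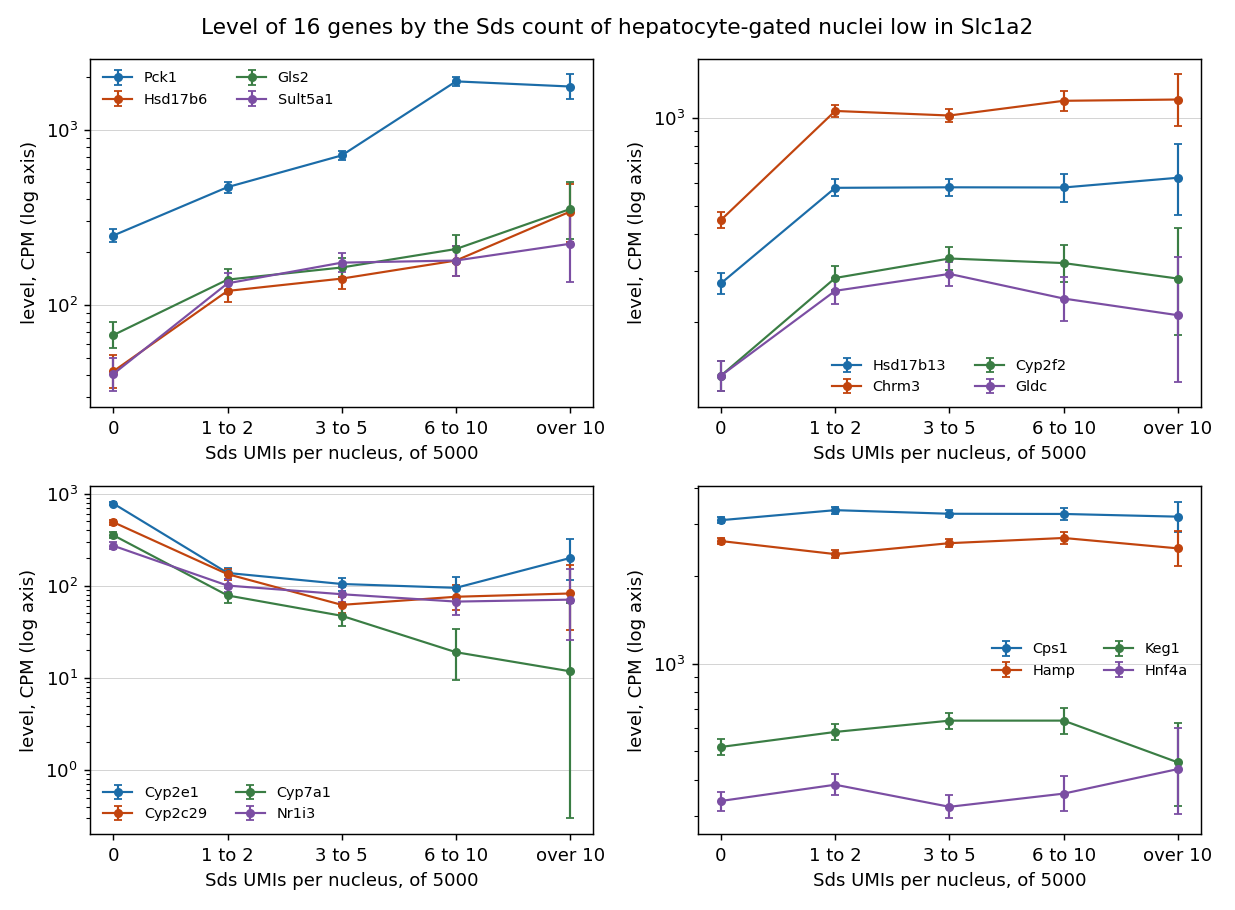
Level in CPM (log axes) of 16 genes in hepatocyte-gated nuclei with at most 1 Slc1a2 UMI, by their Sds count of 5000 UMIs; points are summed counts of 416, 301, 297, 116 and 17 nuclei and bars exact 95% Poisson intervals. Members are 50 of the 416 nuclei at 0 and 231 of the 301 at 1 to 2. Pck1 goes from 249 to 1888 CPM over the first 4 bins, and Hsd17b13 levels off near 576 CPM. Cyp7a1 goes from 353 to 19 CPM, and Cps1 stays between 3101 and 3356 CPM there.

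Over the 1297 nuclei of the hepatocyte gate, the genes most like Sds by Spearman correlation of thinned counts were Chrm3 (0.51), Pck1 (0.48), Hsd17b13 (0.45), Esr1 (0.42) and Arg1 (0.41), with Slc7a2, Cyp2f2, Ftcd, Ncam2 and Plxna2 next. The 9072 genes compared share the nuclei and their free RNA, and Arg1 is a gate gene. Within the 711 members the value for Pck1 was 0.26 and for Slc7a2 0.18, while those for Chrm3 and Hsd17b13 were 0.01 and -0.01. Counts this sparse limit what values within members can show, and none of them was tested. The genes with the lowest values over the gate were Sult2a8 (-0.57), Slco1b2 (-0.56) and Cyp2e1 (-0.55), all higher in pericentral nuclei.

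Set against all other nuclei, which are mostly not hepatocytes by the gate, members were again higher in portal genes. Of 9648 genes 296 (3.07%) were higher and 1192 (12.4%) lower, with a median log2 ratio of -0.12. With each nucleus given equal weight the split was 674 higher and 1481 lower. Of 18 portal genes past the filter 13 were higher and 1 lower, with a median of 1.16. The lower one was Cdh1, E-cadherin, at 10.4 against 51.9 CPM. Its log2 ratio was -2.21, and 0.45 when the other nuclei were limited to the hepatocyte gate. Of 20 central genes 0 were higher and 11 lower (median -1.26).

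The 12 highest unlisted genes against all other nuclei were Ncam2, Trpm3, B3galt1, Reck, Nnmt, Slc3a1, Atp2b2, Rbfox1, Nrg4, Fras1, Bmper and Apba2. Of these, 6 were also among the 12 highest against pericentral nuclei, a comparison that shares the members. B3galt1, a galactosyltransferase, stood at 4915 CPM in members and 1532 in all other nuclei (3.21-fold, 3.17 to 3.24). Nrg4, a secreted growth factor of the epidermal growth factor family, stood at 317 against 105 CPM. The receptor Egfr had a log2 ratio of 1.29 here, and 1.00 against pericentral nuclei (9577 against 4790 CPM). Among the 12 lowest were Ptprm, Ldb2, Eya4, Ppp2r2b, Nav1, Gramd1b, Mecom, Kitl, Fbxl7, Piezo2 and Usp29. Kitl, which encodes stem cell factor, stood at 6.17 against 150 CPM.

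Against the 1878 Ccnd3-high nuclei, members were higher in most metabolic lists. Of 9632 genes 1247 (12.9%) were higher and 1755 (18.2%) lower, with a median log2 ratio of -0.20. Cholesterol synthesis had 20 of 21 genes higher (median 2.23), complement and coagulation 33 of 38 (median 2.13), amino acid catabolism 28 of 39 (median 1.79) and the urea cycle 9 of 10 (median 1.98). Mvd, an enzyme of the mevalonate steps, stood at 45.2 CPM in members and 3.91 in Ccnd3-high nuclei. Uox, urate oxidase, stood at 1380 against 121 CPM. Hypoxia and glycolysis genes ran the other way, with 0 higher and 9 lower of 12 (median -2.21). Hk2, a hexokinase scarce in adult hepatocytes, stood at 7.44 against 181 CPM, and Ndrg1, a stress gene, at 44.7 against 1643 CPM.

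Some central genes were also higher in members than in Ccnd3-high nuclei. Of 17 central genes past the filter 5 were higher and 3 lower. Rnf43 stood at 57.8 against 9.21 CPM and Nr1i3 at 85.9 against 16.8 CPM, whereas Lgr5 stood at 5.07 against 74.8 CPM. By the same naming rule, the highest unlisted genes were B3galt1 (4915 against 193 CPM), Trpm3 (224 against 9.15 CPM), Sntg2 and Kyat3. The lowest were Ppp2r2b, Sctr, Usp29 and Ppm1h. Sctr, the secretin receptor of bile duct cells, stood at 5.41 against 239 CPM, and Ppm1h, a phosphatase, at 35.9 against 1297 CPM. Members and Ccnd3-high nuclei differed in median depth, 14706 against 7651 UMIs, and the part of depth in these values was not tested.

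Markers of other cell types were low in members, which the gate set in part: it capped Ptprc, Stab2, Flt1 and Reln in members, and not in all other nuclei or free RNA. The 15 tumour and oncofetal genes summed to 411 CPM, of which Ccnd3 gave 267, against 4404 in all other nuclei and 1631 in free RNA. Peg3 stood at 48.3 CPM in members and 1365 in Ccnd3-high nuclei, Gpc3 at 13.1 against 290, and Dlk1 and Prom1 were at 0 in members. The 8 bile duct genes summed to 268 CPM in members, 1593 in all other nuclei, 3625 in Ccnd3-high nuclei and 848 in free RNA. In members Pkhd1 gave 169 of it, and Krt19 and Krt7 stood at 1.35 CPM each. Sums for 8 sinusoidal endothelial, 7 stellate, 7 macrophage, 5 T cell and 4 B cell genes were 30.02, 31.1, 15.1, 4.31 and 2.45 CPM. In free RNA these sums were 333, 412, 192, 18.1 and 28.3 CPM. The 4 haemoglobin genes summed to 114 CPM in members and 1437 in free RNA. Each of these lists thus stood lower in members than in free RNA. The 10 general hepatocyte genes did so too, at 18841 against 58421 CPM. A level below free RNA therefore did not set the other cell types apart. Hnf4a, 1 of those 10 genes, stood at 355 CPM in members and 218 in free RNA.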

How the data were processed

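Members, gene lists and tests were chosen with earlier results of these data known. The deposited values are UMI counts per gene and barcode, without normalization by the authors, per the file headers. Per the submitters' processing notes, Cell Ranger 5.0 and the build mm10 were used. The way the 2 samples were combined was not given in the sources used here. Counts were summed per class (Python 3.11.15, scipy 1.17.1) and scaled to CPM over 32285 genes. Ratios used a pseudocount of 1 CPM and genes with a mean of 10 CPM over both classes. The gate genes, and Ccnd3 against Ccnd3-high nuclei, were left out. Folds carry exact Poisson intervals, conditional on the summed UMIs of both classes. Free RNA was summed over 49929 uncalled barcodes with 500 to 850 UMIs. Thinning used 1 fixed seed. Doublets were called with Scrublet in scanpy 1.11.5 and kept. Neighbours used 2000 variable genes. The code was tested on simulated data. Named genes were the 12 highest and 12 lowest with at least 50 UMIs in the higher class, outside the 36 lists and without provisional symbols. Up to 4 members of each list with the largest ratios were also named, together with members past 2-fold against their list's median, the markers and the gate genes. Other list members are given as examples and were chosen after their values were seen. So was the comparison with nuclei low in both zone genes, and the naming against Ccnd3-high nuclei. Alternatives covered the gate limits, depth, filters, pseudocount, weighting, doublets, free RNA and the choice of other nuclei. Some genes that the rule selects are not reported here. Coordinates are those of GENCODE vM21 on mm10.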

Additional observations from a re-analysis of the deposited data

How the results depend on the processing

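No paired analysis was possible because single barcodes name neither sample, and for that reason neither sample could be left out in turn. Counts of genes against pericentral nuclei (353 higher, 427 lower) stayed within 1.5 times under every setting but the level filter, which gave 775 and 897 at 1 CPM and 160 and 197 at 50 CPM. The filter sets how many genes enter the count. Against Ccnd3-high nuclei (1247 and 1755) it gave 3519 lower at 1 CPM, and 765 and 671 at 50 CPM. With only the 615 Ccnd3-high nuclei whose Hmga2 and Peg3 summed to at most 2 UMIs, the counts were 961 higher and 1648 lower. That setting was chosen after seeing the data. Against all other nuclei the count of 296 higher genes moved to 144 with hepatocyte genes at 30 per 10000 (128 of them shared), 91 at a depth of 10000 UMIs (88 shared), 189 with blood and vessel genes at 0 (186 shared), 674 with equal weight per nucleus (293 shared) and 176 with a pseudocount of 10 CPM. It was 87 with other nuclei of the hepatocyte gate only (56 shared) and 604 with those outside it only (291 shared), the last chosen after seeing the data. The 1192 lower genes moved to 3266 at a filter of 1 CPM, 331 at 50 CPM and 190 within the hepatocyte gate (79 shared). Some named genes past 2-fold against all other nuclei changed sign in their log2 ratio within the hepatocyte gate. They were Cdh1 (0.45), Ppargc1a (0.26), Top2a (0.14), Hk2 (0.11), Sox9 (0.55), Mrc1 (0.79), Stab1 (0.61), Thrsp (-0.046) and Aox3 (-0.085). Those now positive had been lower in members, and Thrsp and Aox3 higher. Of their ratios against all other nuclei, only that of Cdh1 is given above. The log2 ratio of Cyp7a1 also changed sign, to 0.042, with other nuclei outside the gate only. Shares without thinning were 100% for Sds (93.0% thinned), 99.4% for Hsd17b13, 66.5% for Sult5a1, 94.4% for Keg1, 93.4% for Cyp2f2, 21.1% for Glul and 62.3% for Cyp2e1. A tighter gate placed the dropped members among all other nuclei. At 30 hepatocyte gene UMIs per 10000, 155 members were set against 5273 other nuclei, in place of 711 against 4717. With blood and vessel genes at 0, 437 members were set against 4991. The part of this in the counts of genes, and the cause of the other moves, was not tested. No named gene past 2-fold changed sign against pericentral or Ccnd3-high nuclei. The 130 pericentral nuclei limit precision for genes with few UMIs there.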
